A study of Arabidopsis thaliana with 12 samples.

Results

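The transcripts of 5 nuclear genes for ribosomal proteins of the plastid were measured in Arabidopsis thaliana of ecotype Columbia 0, in the wild type (WT) and in the mutant psao. The mutant is named after PSAO, the gene of PSI-O, a small subunit of photosystem I. The members are RPL5 (AT4G01310), RPL17 (AT3G54210) and RPL34 (AT1G29070) of the large subunit and RPS6 (AT1G64510) and RPS10 (AT3G13120) of the small subunit. They were chosen by locus, as probes that the platform annotation pairs with exactly 1 gene, and each locus had 1 such probe. These are 5 of 692 probes with 1 gene and of 3439 probes in all. Total RNA was measured on 6 WT and 6 psao arrays, numbered 1 to 6 in each genotype. The labels give no tissue, age, growth condition, mutant allele or line, and give no source plants for the arrays. The p-values therefore describe array-to-array spread, part of which may be technical. PSAO had 0 probes with 1 gene, and a check of the genotype by its transcript was not analysed here. In a tissue sample, fewer cells of a type and less RNA per cell cannot be told apart.

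The plastid translates the proteins encoded in its own genome, among them core subunits of both photosystems, on a ribosome of bacterial type. Some of the proteins of this ribosome are encoded in the plastid genome and the others in the nucleus. The latter are made in the cytosol with a transit peptide and imported, so that a plastid ribosome is assembled from the products of both genomes. All members described here belong to the nuclear set.

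The deposited values are intensities relative to the brightest probe of the same array, which stands at 100. Median probe intensity lay between 0.0970 and 0.195 on WT arrays and between 0.198 and 0.273 on psao arrays, and exact zeros made up 4.22% to 15.1% of an array. The log2 median of psao was above that of WT by 1.14 in the first couple of arrays (numbers 1 and 2), by 0.12 in the next (3 and 4) and by 0.33 in the last (5 and 6). Arrays were therefore quantile normalized on the log2 scale, with zeros set missing, and these normalized log2 levels are the ones tested. The word couple is used because, within a genotype, deviations from the genotype mean were more alike in such a set than in the rest. These deviations correlated across probes with r of 0.28 to 0.60 within such a couple and of -0.65 to 0.18 between other arrays of a genotype. Centring on a mean of the same arrays lowers r, so part of the negative values is built in. For the levels themselves the ranges of r overlapped, with 0.85 to 0.98 within a couple and 0.78 to 0.95 between other arrays. Couples were seen in the data and are not in the labels, and if their arrays are repeats of 1 RNA then p-values over 12 arrays are too small.

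RPS6 transcripts were called lower in psao in a fit that counts each array as separate, and the other members did not pass. The RPS6 call was lost with couples averaged (limma adjusted p = 0.194) and with couples as a random block (adjusted p = 0.140). In the limma fit over 3187 probes, 1 of the 5 members passed an adjusted p of 0.05, and it was lower in psao, where 29.8% of all tested probes passed and 15.0% were called lower. With 5 members, 1 call cannot be placed above or below these shares. Differences were below 0 for 4 of the 5 members, against 52.0% of all tested probes. The median difference of the members was -0.41 log2 units, against -0.04 over all tested probes. Both contrasts are descriptions with no test of the list, whose members were chosen with earlier results of these data known. With arrays 3 to 6 alone the members' median was -0.11 and that of all tested probes -0.07, and with array weights they were -0.25 and -0.06. With normalized values the genotypes overlapped in all 5 members, whereas they did not overlap in 19.7% of all tested probes.

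Of the small subunit, RPS6 belongs to a family that lies on the platform of the bacterial small subunit. Its deposited intensities in WT arrays 1 to 6 were 0.106, 0.0619, 0.293, 0.225, 0.163 and 0.194. In psao arrays 1 to 6 they were 0, 0.0933, 0.127, 0.143, 0.126 and 0.148. In arrays 3 to 6 each psao value lay below each WT value, whereas in array 2 the psao value was the higher of the pair. RPS6 was the only member whose deposited values did not overlap in arrays 3 to 6, a separation that 39.4% of all tested probes showed.

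After normalization RPS6 fell from -2.40 ± 0.50 (SD, n = 6) on WT arrays to -3.31 ± 0.51 (SD, n = 5) on psao arrays. The change was -0.91 ± 0.30 log2 units (SE), 1.88-fold lower, with a 95% interval of -1.57 to -0.25 and a limma adjusted p of 0.0404. The WT mean exceeded each of the 5 psao arrays with a signal, and the lowest WT array exceeded 2 of them. The zero of psao array 1 does not enter this value. In rank terms RPS6 stood between the 39.7th and the 63.4th percentile of probes on WT arrays and between the 3.37th and the 40.7th on psao arrays, with medians of 51.2 and 29.7. These ranks do include the zero of psao array 1, which is the 3.37th percentile, and the lowest psao array with a signal stood at 20.2. By couple the normalized difference was -1.27 in the first couple, where psao array 2 alone gave a signal, -1.01 in the next and -0.87 in the last.

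The call of RPS6 lay close to the threshold. With arrays 3 to 6 alone the change was -0.92 with a limma adjusted p of 0.0118, and 20.7% of probes were called lower in that fit. Averaging the arrays of each couple gave -1.05, which missed the threshold (limma adjusted p = 0.194). With the deposited scale kept it was -0.30 (limma adjusted p = 0.571), in a fit where the median of all probes shifted by 0.43 toward psao, so that RPS6 stood 0.73 below that median. Leaving out single arrays gave changes from -1.05 to -0.72, and 4 of the 12 passed: those without WT replicate 2 (adjusted p = 0.0168) and without psao replicates 1 (0.0422), 3 (0.0456) and 4 (0.0353). It did not pass in limma without WT replicate 1 (adjusted p = 0.0505), 3 (0.0756), 4 (0.0744), 5 (0.0515) or 6 (0.0653), nor without psao replicate 2 (0.0849), 5 (0.0793) or 6 (0.0615).

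RPS10 is a protein of the head of the small subunit, and its counterpart in Escherichia coli also takes part in transcription antitermination. Its deposited intensity had a lowest value of 0.232, a median of 0.337 and a highest value of 0.531 in WT, and 0.229, 0.389 and 0.521 in psao. The genotypes covered almost the same range. The normalized level was -1.35 ± 0.29 (SD, n = 6) on WT arrays and -1.69 ± 0.72 (SD, n = 6) on psao arrays, a difference of -0.34 with a 95% interval of -1.01 to 0.33 (limma adjusted p = 0.422). The couples went different ways: the difference was -1.05 in the first, 0.57 in the next and -0.54 in the last. The arrays of a couple differed from each other by at most 0.31 log2 units in RPS10, less than any of these couple differences. With arrays 3 to 6 alone the difference was 0.02, and with the deposited scale it was 0.05. Without psao replicate 1 or 2 the RPS10 difference was -0.20 or -0.14.

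**Figure D1:**
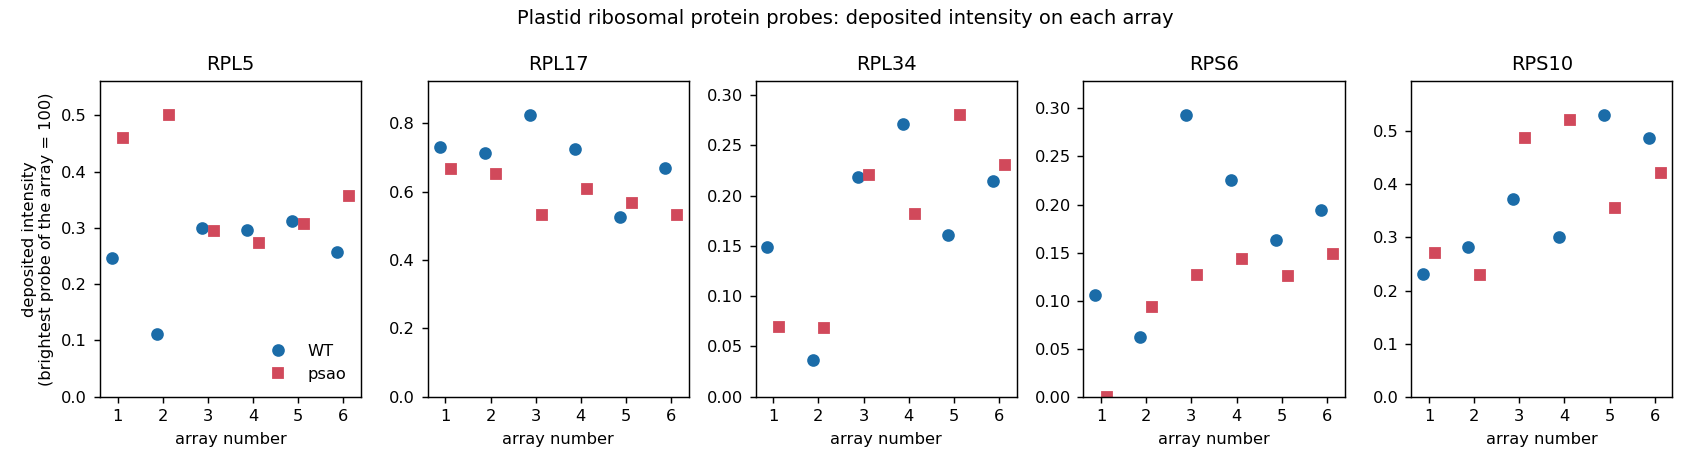
Deposited intensity (brightest probe of the array at 100, linear axis from 0, own scale per panel) of the 5 members on WT (circles) and psao (squares) arrays 1 to 6. RPS6 of psao lies below that of WT in arrays 3 to 6 and is listed at 0 in psao array 1, and RPL5 of psao stands at 0.460 and 0.501 in arrays 1 and 2.

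Of the large subunit, RPL17 belongs to a family that sits near the exit of the peptide tunnel in bacterial ribosomes. Its deposited intensity had a lowest value of 0.524, a median of 0.718 and a highest value of 0.824 in WT, and 0.531, 0.588 and 0.667 in psao. The psao arrays were lower than the same-numbered WT array except in array 5, where WT had its lowest value. The normalized level was -0.46 ± 0.30 (SD, n = 6) on WT arrays and -0.87 ± 0.11 (SD, n = 6) on psao arrays.

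In RPL17 the WT mean exceeded each of the 6 psao arrays, and the lowest WT array exceeded 1 of them. The difference of -0.41 had a 95% interval of -0.78 to -0.05 and a limma adjusted p of 0.0838, which did not pass. By couple it was -0.59, -0.44 and -0.21, so the sign was shared by the 3 couples, as it was on the deposited scale (-0.13, -0.44 and -0.11). Under median centring the difference was -0.76 and passed (limma adjusted p = 0.0170). It also passed with dim probes left out (-0.41, adjusted p = 0.0455) and without WT replicate 5 (-0.52, adjusted p = 0.0270), and not in the other 21 settings, in which adjusted p-values reached 0.412.

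RPL5 in bacteria binds ribosomal RNA in the central protuberance of the large subunit. Its deposited intensity had a lowest value of 0.111, a median of 0.277 and a highest value of 0.312 in WT, and 0.273, 0.331 and 0.501 in psao. The highest values were those of psao arrays 1 and 2, and the lowest that of WT array 2, which came from the WT couple with the lowest median intensity. The normalized level was -1.83 ± 0.33 (SD, n = 6) on WT arrays and -1.67 ± 0.23 (SD, n = 6) on psao arrays, a difference of 0.16 with a 95% interval of -0.25 to 0.58 (limma adjusted p = 0.539). In couples it was 0.61, -0.11 and -0.02. On the deposited scale the couples differed by 1.54, -0.07 and 0.22. WT arrays 1 and 2 were 0.90 log2 units apart in this probe, and without WT replicate 2 the normalized difference was 0.0357. With arrays 3 to 6 alone it was -0.06.

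RPL34 is a small basic protein of the large subunit. Its deposited intensity had a lowest value of 0.0363, a median of 0.187 and a highest value of 0.271 in WT, and 0.0680, 0.201 and 0.280 in psao. In both genotypes the lowest values came from arrays 1 and 2, with 0.0363 in WT array 2 and 0.0689 and 0.0680 in psao arrays 1 and 2. The normalized level was -2.44 ± 0.71 (SD, n = 6) on WT arrays and -3.06 ± 1.20 (SD, n = 6) on psao arrays, the highest SD of the 5 members in both genotypes. Its difference of -0.62 had a 95% interval of -1.75 to 0.51 and did not pass (limma adjusted p = 0.389). By couple the difference of RPL34 was -1.62, -0.36 and 0.13. Arrays 3 to 6 alone gave -0.11. Without psao replicate 1 or 2 it was -0.32 or -0.31.

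**Figure D2:**
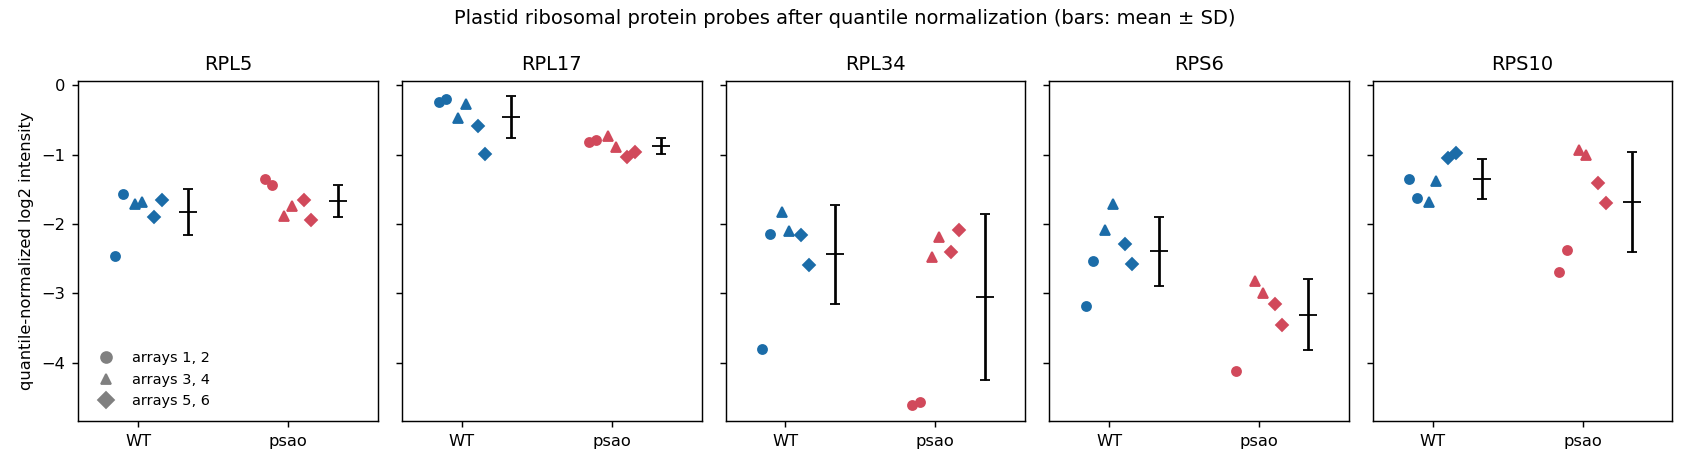
Quantile-normalized log2 intensity of the 5 members on each array of WT (blue) and psao (red), with symbols for the couples of array numbers and bars for the mean ± SD of a genotype. RPS6 is drawn for 5 psao arrays, without the array listed at 0, and the lowest points of RPL34, RPS6 and RPS10 in psao come from arrays 1 and 2.

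The members thus differed in how far their couples resembled one another. RPS6 and RPL17 were lower in psao in all 3 couples on normalized values, and RPL34, RPS10 and RPL5 in 2 of 3. On the deposited scale RPL17 was still lower in 3 of 3 couples and RPS6 in 2 of 3, with 0.20 in arrays 1 and 2. That last value rests on psao array 2 alone, the psao array of this couple with an RPS6 signal. For RPS6, RPL17, RPL34 and RPS10 alike, the most negative normalized difference was that of arrays 1 and 2, the couple in which the deposited medians of the genotypes stood farthest apart. The part of array brightness in these differences was not tested.

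**Figure D3:**
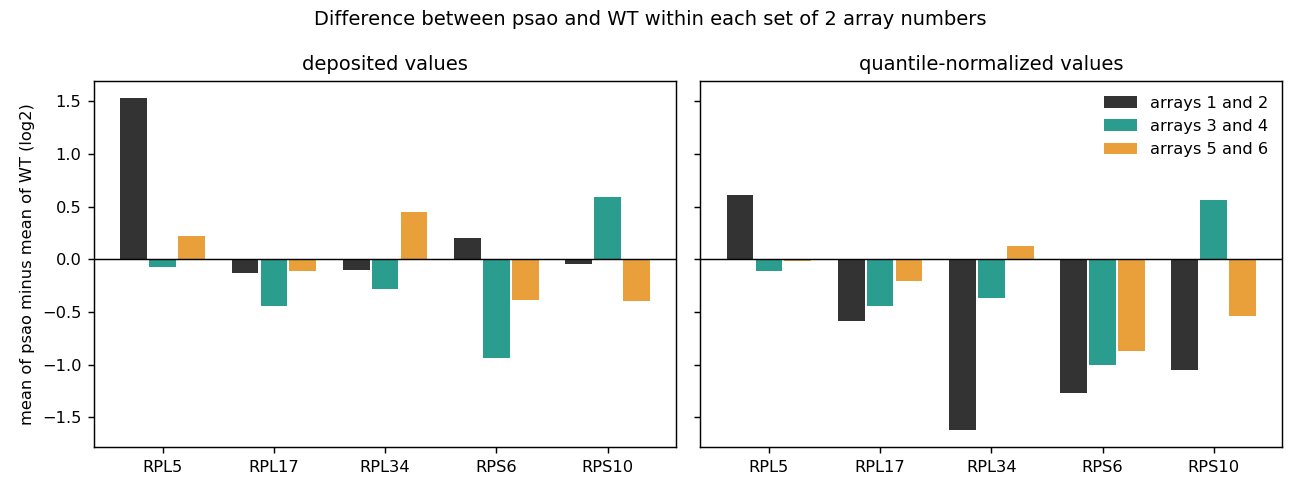
Mean log2 intensity of psao minus that of WT in arrays 1 and 2, 3 and 4, and 5 and 6, on deposited values (left) and after quantile normalization (right), with each bar the difference of 2 means of up to 2 arrays. RPL17 is below 0 in all couples on both scales, and the bars of RPS10 change sign between couples, from -1.05 to 0.57 after normalization.

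RPS6 had a negative difference in each of the 22 other settings in which it was tested and passed in 9 of them. RPL17 was also negative in each of its 24 settings and passed in 3. RPL34, RPS10 and RPL5 passed in 0 of 23, 24 and 24 settings in limma, and their differences had either sign, from -0.87 to 0.02 for RPL34, from -0.49 to 0.05 for RPS10 and from -0.06 to 0.56 for RPL5. Their lowest adjusted p-values in limma were 0.196, 0.246 and 0.140 in this order.

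**Figure D4:**
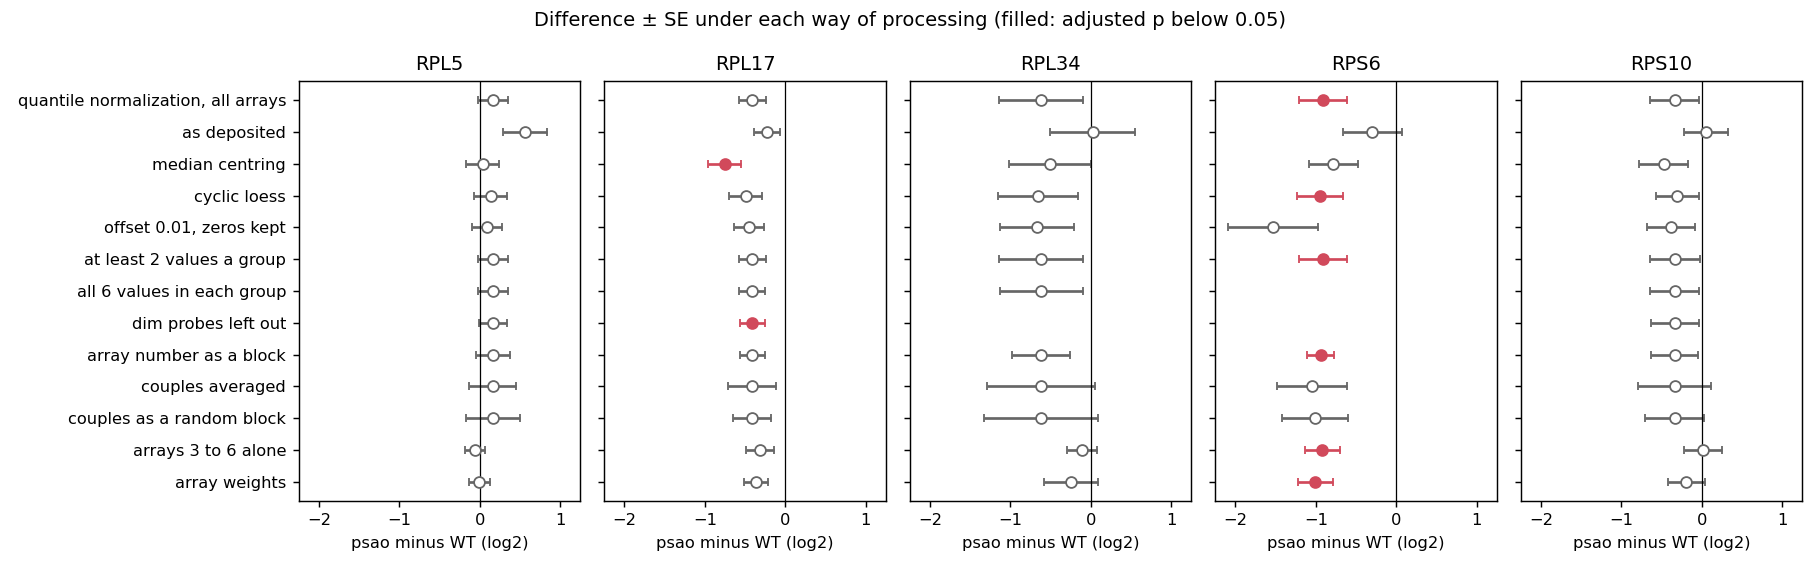
Difference between psao and WT (log2, ± SE) of the 5 members under quantile normalization of all arrays and 12 alternative ways of processing, filled where the limma adjusted p was below 0.05. RPS6 is below 0 in each setting in which it was tested and passes in some of them, and RPL5, RPL34 and RPS10 cross 0 in at least 1 setting.

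Ratios of 2 members on the same array do not depend on a scaling factor of that array, and show whether the members changed unequally. Of 10 ratios between members, on deposited log2 values, 0 passed after Benjamini-Hochberg adjustment in an exact two-sided permutation test over arrays, and 2 had an unadjusted p under 0.05. RPL5 over RPS6 was 0.64 ± 0.44 (SD, n = 6) on WT arrays and 1.42 ± 0.58 (SD, n = 5) on psao arrays, a difference of 0.79 (exact permutation p = 0.0173, adjusted p = 0.0866). RPL5 over RPL17 was -1.52 ± 0.64 (SD, n = 6) on WT arrays and -0.73 ± 0.28 (SD, n = 6) on psao arrays, a difference of 0.79 (exact permutation p = 0.0108, adjusted p = 0.0866). Both ratios were higher in psao in all 3 couples, by 1.39, 0.86 and 0.60 for RPL5 over RPS6 and by 1.66, 0.37 and 0.34 for RPL5 over RPL17. In the first couple the value of RPL5 over RPS6 rests on psao array 2 alone. The ranges of both ratios over single arrays overlapped between the genotypes.

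With arrays 3 to 6 alone, a choice made for the ratios after seeing the data, RPL5 over RPS6 differed by 0.73 and RPL5 over RPL17 by 0.35. RPL34 over RPS6 then lay between -0.42 and 0.27 in WT and between 0.35 and 1.15 in psao, without overlap. RPL17 over RPS6 likewise did not overlap, with 1.49 to 1.79 in WT and 1.84 to 2.17 in psao. The other ratios overlapped. Both of these ratios hold RPS6, whose own deposited values did not overlap in these arrays, as in 39.4% of all tested probes. They are therefore not independent of the RPS6 values given above. In an exact permutation test of 4 against 4 arrays, whose smallest possible p is 0.0286, both reached that p, with an adjusted p of 0.143. Neither passed the adjusted threshold. In arrays 1 and 2 both ratios went the other way, by -0.31 for RPL34 over RPS6 and -0.35 for RPL17 over RPS6. Both values rest on psao array 2 alone, because RPS6 was listed at 0 in psao array 1, which has no ratio. In that array RPL34 stood at 0.0689 and RPL17 at 0.667, above RPS6, so a reversal in this couple is not established. Over all arrays RPL34 over RPS6 differed by 0.55 (exact permutation p = 0.126) and RPL17 over RPS6 by 0.03 (exact permutation p = 0.905).

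Across arrays the members did not share 1 pattern. Normalized levels correlated with r of 0.71 between RPL34 and RPS6 (11 arrays) and 0.69 between RPL34 and RPS10 (12 arrays). In psao arrays 1 and 2 RPL34 stood at -4.56 and -4.62 and RPS10 at -2.38 and -2.69, the lowest values of both members. RPS6 had its lowest value, -4.12, in psao array 2. These low values enter both correlations, with psao array 2 alone for RPL34 and RPS6, and r without them was not analysed here. RPL5 correlated negatively with each of the other members, from -0.05 with RPS6 to -0.53 with RPS10. These values are descriptions over arrays that share couples and genotypes.

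The 1-gene probes most like each member were found by Pearson r over at least 10 shared arrays, among 611 probes for all members except RPS6 and 578 for RPS6. RPS6 was most like DRT101 (r = 0.95), which passed with a difference of -1.04 (limma adjusted p = 0.00755), and AT3G09050 (r = 0.95). RPL17 was most like AT2G35490 (r = 0.92) and AT5G14910 (r = 0.85), both of which passed with differences of -0.85 and -0.76. RPL34 was most like AT4G30740 (r = 0.93) and CSLA01 (r = 0.93), and RPS10 was most like AT4G22490 (r = 0.89) and CSLA01 (r = 0.87). RPL5 was most like AT4G33500 (r = 0.87) and AT5G13260 (r = 0.85). The probes nearest to RPL34, RPS10 and RPL5 did not pass (limma adjusted p from 0.138 to 0.442). The r values include the difference between genotypes, so a probe like a member tends to share its difference by selection. The differences of these probes are therefore no separate result. No member was among the nearest probes of another.

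Other genes of plastid gene expression were thinly covered by 1-gene probes. Of 36 further nuclear loci for plastid ribosomal proteins, 1 was measured, PRPL29 (AT5G65220), another protein of the large subunit. It was listed at 0 on all 12 arrays, as were 24 of 3439 probes, and was not tested. Of 10 plastid translation factors and of 20 components of plastid transcription, 0 had a 1-gene probe. Of 11 genes for plastid ribosome biogenesis and RNA maturation, 1 was measured, AT2G25870, which encodes YBEY, an endoribonuclease that matures ribosomal RNA in the Arabidopsis chloroplast.

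AT2G25870 had 2 probes, whose differences had opposite signs. The first YBEY probe had normalized levels of -1.15 ± 0.36 (SD, n = 6) on WT arrays and -2.33 ± 0.36 (SD, n = 6) on psao arrays, a change of -1.18 ± 0.22 (SE) with a limma adjusted p of 0.00232. Each psao array was lower than the lowest WT array. The second YBEY probe stood at -2.98 ± 0.78 (SD, n = 6) on WT arrays and -1.96 ± 0.77 (SD, n = 6) on psao arrays, a difference of 1.03 that did not pass (limma adjusted p = 0.0820). The WT mean was exceeded by each of the 6 psao arrays in this probe. Blocked by array number, the second YBEY probe passed (limma adjusted p = 0.00397), as it did with arrays 3 to 6 alone (1.03, adjusted p = 0.00180), on the deposited scale (1.47, adjusted p = 0.0159) and with array weights (1.15, adjusted p = 0.00285). It did not pass with couples averaged (limma adjusted p = 0.319) or with couples as a random block (adjusted p = 0.174).

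The first YBEY probe passed in 22 of 24 other settings, among them couples as a random block (-1.18, limma adjusted p = 0.0213). It did not pass on the deposited scale (-0.77, limma adjusted p = 0.0890) or with couples averaged (-1.18, adjusted p = 0.123). Because the probes of AT2G25870 differed in sign, a direction for the transcript of this gene cannot be given. Each of the 5 ribosomal protein genes was read by 1 probe, so a second probe to set beside it was not analysed here.

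**Figure D5:**
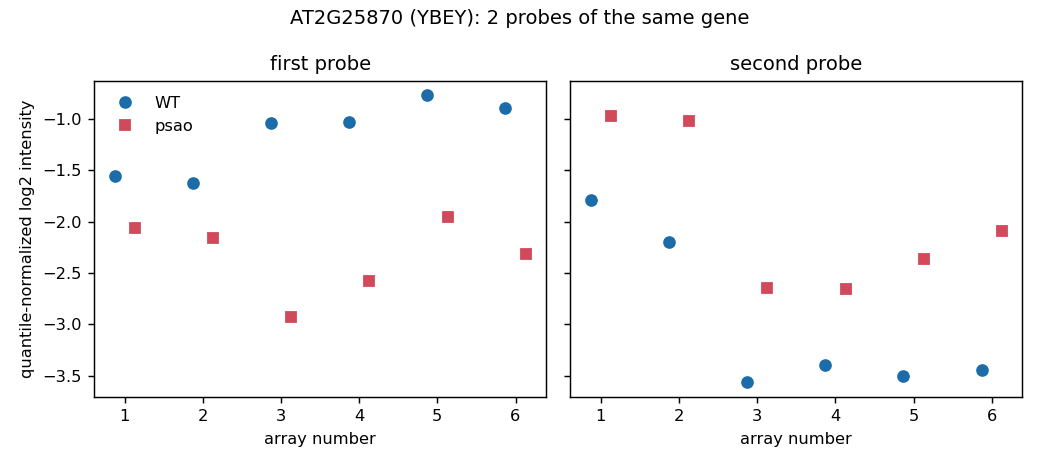
Quantile-normalized log2 intensity of the 2 probes of AT2G25870 (YBEY) on WT (circles) and psao (squares) arrays 1 to 6. The psao arrays lie below all WT arrays in the first probe, and above the WT array of the same number in the second.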

How the data were processed

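The table covers 3439 probes. Its deposited intensities hold no negative value, and in every column the brightest probe is at 100. The authors' steps before that, the tissue and the array's manufacture are not given in the sources used here. Platform annotation listed 1562 probes, 692 with 1 gene and 870 with several, and 690 of the former matched the RefSeq table of TAIR10.1. No probe was named from several genes, and no genome positions are given because no build was named. No symbol or synonym of a 1-gene probe in that table held the words "ribosomal protein" (0 probes).

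Intensities were log2 transformed with zeros missing and quantile normalized, because log2 medians ranged over 1.15 against a tolerance of 0.1. A probe needed 4 values in each genotype, which left 3187. psao and WT were compared with limma 3.58.1 in R 4.3.3 (two-sided, Benjamini-Hochberg over all tested probes, threshold 0.05). The fit was afterwards run on simulated independent arrays with the means and spreads of the main fit. Those arrays hold no couples, so this run cannot check p-values over arrays that come in couples. Ratios were tested with exact permutation in scipy 1.17.1. For arrays, their number limits the precision.

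Both genotypes have arrays numbered 1 to 6 in their titles. Deviations of the 6 same-numbered pairs correlated with r from 0.146 to 0.254, although no label explains the numbers. The fit and the permutation tests in the text are unpaired, and a fit with the number as a block stands beside them. Named were the members, the measured genes of the 4 lists of plastid gene expression (77 loci), and the 2 probes most like each member. Members, lists, couples and settings were chosen with earlier results of these data known.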

Additional observations from a re-analysis of the deposited data

How the results depend on the processing

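Results were recomputed in 12 other settings and with each of the 12 arrays left out. The number of probes called, 949 of 3187, was 60 with couples averaged, 330 with couples as a random block (duplicateCorrelation, consensus correlation 0.701, statmod 1.5.0) and 1427 with array weights, and 786 to 939 with 1 array left out. With the array number as a block it was 1090 (523 higher). The block changed no call of a member: RPS6 had -0.94 with a limma adjusted p of 0.00964. With values as deposited, 763 of 986 called probes were higher in psao, against 472 of 949 after quantile normalization. The number of members called, 1, was 0 as deposited, with the offset of 0.01 that keeps zeros, with all 6 values required in each genotype (RPS6 is then not tested), with couples averaged and with couples as a random block, and 0 to 1 with 1 array left out. The 1 member called was RPL17 and not RPS6 under median centring, with dim probes left out and without WT replicate 5. With dim probes left out, RPS6 and RPL34 were themselves dropped and not tested. RPS6 passed in 9 of 22 settings and did not pass as deposited (-0.30), under median centring (-0.78), with the offset (-1.53), with couples averaged (-1.05) or as a random block (-1.01), and with 1 array left out it ranged from -1.05 to -0.72. RPL17 passed under median centring (-0.76) and with dim probes left out (-0.41), and ranged from -0.52 to -0.36 with 1 array left out. The direction changed as deposited for RPL34 (0.0236), RPS10 (0.0530) and the median of the members (0.0236), with arrays 3 to 6 alone for RPL5 (-0.0633) and RPS10 (0.0170), and with array weights for RPL5 (-0.00537). Among ratios it changed for RPL17 over RPL34 with quantile-normalized values (from -0.25 to 0.21) and, with arrays 3 to 6 alone, for RPL5 over RPL34 (-0.00964) and RPL5 over RPS10 (-0.0237). The cause of these changes was not tested.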
